A study of Homo sapiens with 7 samples.

Results

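The cytosolic and mitochondrial chaperone genes form a group of 40, taken by gene symbol from the 57773 genes of the count table. All 40 were found once each, and 37 of them passed the filter on low counts. The members that did not pass, HSPA2, DNAJA4 and HSPB8, stood at 0.281 CPM or less in every library, where CPM is counts per 1000000 counts of the scaled library. The samples were 7 poly-A RNA-seq libraries of K562, an immortalized human chronic myelogenous leukemia cell line, grown at 37 °C and 8% CO2. The 3 parental libraries came from cells in which every allele of the histone demethylase LSD1 (gene KDM1A) was wild type and carried a C-terminal GFP tag. The 4 edited libraries came from edited cells 1 and 2, here line 1 and line 2 with 2 libraries each, in which 2 alleles encoded Y391K LSD1-GFP and 1 allele encoded wild-type LSD1-GFP. The design calls Y391K a gain of function that overcomes the block by histone H3 acetylation, and the study asked which transcripts it changes. No heat or drug treatment is given in the labels. The labels do not say whether a line was 1 clone or whether each library had a culture of its own, so p-values measure the spread between these libraries, which may be technical.

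Molecular chaperones bind proteins that are not yet folded or have lost their fold. HSP70 proteins hold a client in cycles of ATP use, J-domain proteins deliver the client and start ATP hydrolysis, and BAG proteins and HSP110 proteins release the nucleotide. HSP90 takes clients from HSP70 through the adaptor STIP1 and finishes the folding of kinases and steroid receptors with co-chaperones such as CDC37, AHSA1 and PTGES3. In mitochondria, HSPA9 and TRAP1 serve as HSP70 and HSP90, and HSPD1 with its lid HSPE1 forms a folding cage. HSF1, the main heat shock transcription factor, is held inactive by chaperones and binds heat shock elements, arrays of inverted GAA units, when unfolded proteins draw the chaperones away. Constitutive members such as HSPA8 and HSP90AB1 are abundant in unstressed cells, whereas HSPA1A, HSPA1B and DNAJB1 are known for strong heat induction. BCR-ABL, the kinase that drives this leukemia, is a known HSP90 client.

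Promoter sequences are shown for 6 members because the results below turn on which chaperone genes stood high together in 1 library. They come from the RefSeq promoter table of GRCh38.p14, which runs from 250 bases before to 50 bases after the annotated start, and 34 of the 40 members were matched in it. A 2-unit heat shock element was searched as GAANNTTC or TTCNNGAA, and a 3-unit element as GAANNTTCNNGAA or TTCNNGAANNTTC, so both strands were covered and each 3-unit match contains 2-unit matches. HSPA1A at chr6:31815293-31815592 on the plus strand and HSPA1B at chr6:31827488-31827787 on the plus strand encode the same stress-inducible HSP70. DNAJB1 at chr19:14529222-14529521 on the minus strand encodes the main J-domain partner of inducible HSP70. CHORDC1 at chr11:90223000-90223299 on the minus strand encodes an HSP90 co-chaperone. HSPA8 at chr11:123062087-123062386 on the minus strand encodes the constitutive HSP70, and HSPA6 at chr1:161524290-161524589 on the plus strand encodes a strictly inducible one. Each is written in the direction of transcription, and capitals mark bases inside a 2-unit match.
HSPA1A: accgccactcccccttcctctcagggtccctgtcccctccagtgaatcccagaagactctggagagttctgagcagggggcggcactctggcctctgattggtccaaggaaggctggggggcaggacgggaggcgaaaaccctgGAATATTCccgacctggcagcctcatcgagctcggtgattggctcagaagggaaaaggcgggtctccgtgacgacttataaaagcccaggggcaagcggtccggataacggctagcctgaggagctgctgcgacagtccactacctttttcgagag
HSPA1B: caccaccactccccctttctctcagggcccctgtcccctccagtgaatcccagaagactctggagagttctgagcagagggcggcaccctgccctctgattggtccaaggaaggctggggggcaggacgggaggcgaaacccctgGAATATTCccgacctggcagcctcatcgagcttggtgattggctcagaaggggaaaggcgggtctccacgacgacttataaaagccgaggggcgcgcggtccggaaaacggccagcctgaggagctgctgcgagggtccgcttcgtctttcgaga
DNAJB1: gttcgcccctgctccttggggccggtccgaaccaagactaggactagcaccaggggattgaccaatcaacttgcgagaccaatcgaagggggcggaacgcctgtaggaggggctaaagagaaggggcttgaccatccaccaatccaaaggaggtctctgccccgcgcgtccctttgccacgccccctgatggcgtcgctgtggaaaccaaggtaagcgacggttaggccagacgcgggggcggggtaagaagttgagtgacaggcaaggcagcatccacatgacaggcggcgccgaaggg
CHORDC1: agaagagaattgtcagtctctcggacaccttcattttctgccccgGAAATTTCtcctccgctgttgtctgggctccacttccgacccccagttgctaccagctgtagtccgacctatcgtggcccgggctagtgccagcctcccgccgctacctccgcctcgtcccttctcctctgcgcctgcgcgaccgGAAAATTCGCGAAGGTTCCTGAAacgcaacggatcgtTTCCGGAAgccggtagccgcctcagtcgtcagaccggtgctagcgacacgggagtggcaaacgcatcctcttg
HSPA8: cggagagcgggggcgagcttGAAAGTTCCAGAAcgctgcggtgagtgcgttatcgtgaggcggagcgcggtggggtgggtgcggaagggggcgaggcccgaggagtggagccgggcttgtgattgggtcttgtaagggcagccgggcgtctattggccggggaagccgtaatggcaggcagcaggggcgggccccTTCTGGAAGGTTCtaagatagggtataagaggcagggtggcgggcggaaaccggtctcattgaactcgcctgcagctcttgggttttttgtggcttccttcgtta
HSPA6: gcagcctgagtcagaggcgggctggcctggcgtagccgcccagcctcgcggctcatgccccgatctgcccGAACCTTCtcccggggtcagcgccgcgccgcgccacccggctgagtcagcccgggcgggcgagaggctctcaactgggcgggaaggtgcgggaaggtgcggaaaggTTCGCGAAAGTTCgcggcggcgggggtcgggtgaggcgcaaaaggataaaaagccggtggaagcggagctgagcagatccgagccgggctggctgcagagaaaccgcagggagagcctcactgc
In these windows HSPA1A and HSPA1B each held a single 2-unit match, of the same 8 bases, GAATATTC, and no 3-unit match. DNAJB1 held no match. CHORDC1 held 6 overlapping or separate 2-unit matches and 3 of the 3-unit form, HSPA8 held 4 and 2, and HSPA6 held 3 and 1. Over all matched members, 12 of 34 promoters (35.3%) had a 2-unit match, against 3738 of 27305 promoters in the table (13.7%). A 3-unit match was found in 5 member promoters (14.7%), those of CHORDC1, DNAJB6, DNAJA1, HSPA8 and HSPA6, against 133 of all promoters (0.487%). A match describes the letters in the window only. For each gene 1 annotated start was searched, and whether these cells use that start was not tested.

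The 7 libraries had 35841302 to 72577827 counts. KDM1A RNA stood at 237 to 348 CPM, and its log2 fold change between edited and parental cells was 0.01 (adjusted p of 0.989 by the quasi-likelihood test of edgeR, Benjamini-Hochberg adjusted). Pearson's r of log2 CPM, over genes and so not over independent replicates, was 0.988 between parental 1 and 2, and 0.967 and 0.965 between parental 3 and each of them. Parental 3 thus stood apart from the other parental libraries, and results that rest on it are given with and without it. The erythroid genes HBG2 and GATA1 were present in every library, as K562 cells express them. Monocyte markers summed to 0.108 to 0.741 CPM. Of 6 lymphoid markers, 3 passed the filter on low counts, and the list summed to 58.5 to 386 CPM. Among them PTPRC was expressed, and the B cell marker MS4A1 reached at most 0.014 CPM. Of 5 stromal or epithelial markers, 2 passed, EPCAM was expressed, and the list summed to 70.0 to 128 CPM. The libraries are bulk RNA, in which fewer cells that express a gene and less RNA per cell cannot be told apart.

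At the level of the whole group, chaperone genes took more of the RNA in parental 3 than in any other library. Their share of all counts was 1.45% in parental 1, 1.51% in parental 2 and 2.75% in parental 3. It was 1.48% and 1.75% in the line 1 libraries and 1.57% and 2.13% in the line 2 libraries. HSPA1A and HSPA1B together held 0.00956% and 0.0102% of the counts in parental 1 and 2, 0.447% in parental 3, and 0.0195% to 0.0475% in the edited libraries. For these paralogs the 4 edited libraries thus lay between parental 1 and 2 on one side and parental 3 on the other. Without these paralogs the share in parental 3 was still the highest, at 2.31%, followed by 2.10% in line 2 replicate 2.

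**Figure D1:**
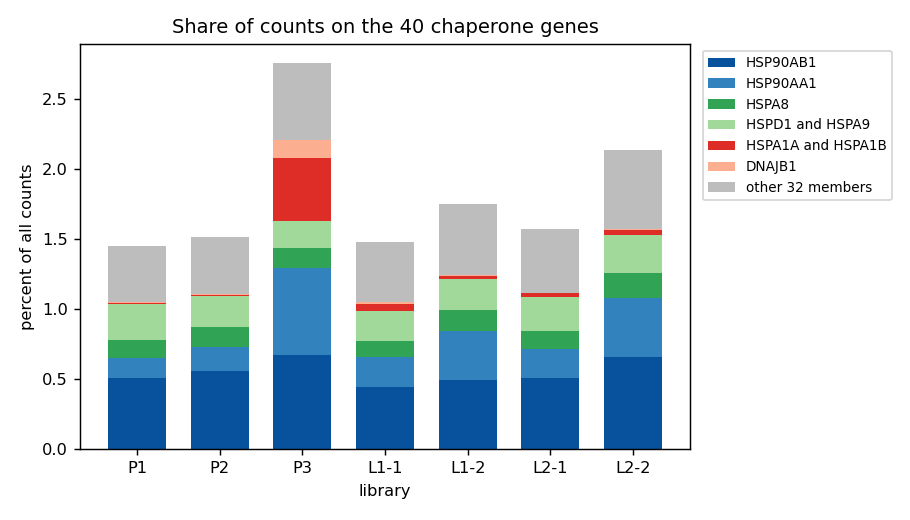
Percent of all counts on the 40 chaperone genes in each library (P parental, L1 line 1, L2 line 2, replicate after the dash), stacked by gene. Parental 3 reaches 2.75% and the other libraries 1.45% to 2.13%, and HSPA1A with HSPA1B (red) is visible mainly in parental 3.

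Per length, in FPKM (fragments scaled to gene length and library size), the highest levels belonged to HSP90 and HSP70 genes and the mitochondrial chaperonin HSPD1. The median over the 7 libraries was 422 FPKM for HSP90AA1, 373 for HSPA8, 346 for HSP90AB1, 294 for HSPD1 and 192 for HSPA9. By CPM the order differed, and HSP90AB1 was above HSP90AA1 in every library. HSP90AB1 stood at 4881 CPM and HSP90AA1 at 1387 CPM in parental 1, and at 7336 and 6871 CPM in parental 3. The lowest CPM of HSP90AB1, 4411, was above the highest of HSPA8, 1803. Why the 2 measures differ was not tested. HSP90AA1, the stress-responsive HSP90, ranged from 226 to 2185 FPKM over the libraries and so spanned the levels of HSPA8 (306 to 540.0), HSP90AB1 (297 to 471) and HSPD1 (250.1 to 435). HSPA8, HSP90AB1 and HSPD1 overlapped each other in range, and HSPA9 (174 to 206) lay below all of them. HSPA1B and HSPA1A followed with medians of 117 and 114 FPKM, and all other members had medians of 94.4 FPKM, the value of CDC37, or less. The lowest tested members were HSPA1L, an HSP70 best known from testis, at 1.06 FPKM and HSPA6 at 0.988 FPKM. HSPB8, a small heat shock protein, had 0 counts in the 3 parental libraries.

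The parental libraries were compared one by one, which has no replicate and no test. Parental 3 was at least 2-fold above both other parental libraries for 11 of 37 members, against 3.08% of all 18160 genes tested. The same count was 0 for parental 1 (0.854% of all genes) and 0 for parental 2 (1.28%). No library was at least 2-fold below both others for any tested member, where the shares over all genes were 1.35%, 1.08% and 9.87% for parental 1, 2 and 3. Parental 3 was the highest of the 3 for 29 of 37 members, against 40.5% of all genes. The median difference over the members was 0.59 (log2) between parental 3 and parental 1 and 0.45 between parental 3 and parental 2, but 0.03 between parental 2 and parental 1. Over all genes tested these medians were -0.02, -0.03 and 0.00.

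In the HSP70 family, 4 of 10 tested members reached the 2-fold level in parental 3. HSPA1A stood at 55.0 and 59.3 CPM in parental 1 and 2 and at 2776 CPM in parental 3. Its line 1 libraries were at 296 and 122 CPM and its line 2 libraries at 137 and 225 CPM. Parental 3 was 46.8-fold above the higher of the other parental libraries, and every edited library lay between them. HSPA1B stood at 37.8, 40.5 and 2143 CPM in parental 1 to 3, at 179 and 73.4 CPM in line 1 and at 86.6 and 133 CPM in line 2. The order of the 7 libraries was the same as for HSPA1A, with a 52.9-fold gap. These paralogs share 63.2% of the 150-base windows of HSPA1A and 66.0% of those of HSPA1B in GENCODE release 29 transcripts, so the split of reads between them is uncertain, and so is their sum if the counting dropped reads that fit both.

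HSPA1L, whose annotated start lies beside that of HSPA1A on the opposite strand, stood at 2.76, 3.98 and 11.3 CPM in the parental libraries. Its edited libraries, at 5.49, 3.24, 4.04 and 4.49 CPM, overlapped parental 1 and 2. HSPH1, an HSP110 protein that releases nucleotide from HSP70, stood at 166, 164 and 473 CPM in parental 1 to 3, at 184 and 273 CPM in line 1 and at 236 and 322 CPM in line 2. All edited libraries of HSPH1 lay above parental 1 and 2 and below parental 3. The constitutive HSPA8 showed no such gap. It stood at 1287, 1372 and 1532 CPM in the parental libraries, at 1138 and 1479 CPM in line 1 and at 1235 and 1803 CPM in line 2, so parental and edited libraries overlapped. HSPA9, the mitochondrial HSP70, and HSPA14, a ribosome-associated HSP70, were lower in parental 3 than in both other parental libraries, with HSPA9 at 1029.7 CPM against 1056 and 1249.6 CPM.

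HSPA6 went the other way. It stood at 4.63, 3.19 and 1.65 CPM in parental 1 to 3, at 4.82 and 1.7 CPM in line 1 and at 10.4 and 3.98 CPM in line 2. Parental 3 was the lowest of the 7 libraries for this strictly inducible HSP70, and line 2 replicate 1 was the highest. HSPA6 also had the widest range of any member among the edited libraries, 2.58 on the log2 scale, ahead of DNAJB1 at 1.90.

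In the HSP90 family 1 of 3 members reached the 2-fold level. HSP90AA1 stood at 1387, 1702 and 6871 CPM in parental 1 to 3, at 2164 and 3489 CPM in line 1 and at 1973 and 4177 CPM in line 2. All 4 edited libraries were above parental 1 and 2 and below parental 3, which was 4.04-fold above parental 2. Its constitutive paralog HSP90AB1 stood at 4881, 5427 and 7336 CPM in the parental libraries and at 4411 to 6559 CPM in the edited ones, with overlap. TRAP1, the mitochondrial HSP90, ranged from 333 to 404 CPM over the 7 libraries.

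Among small heat shock proteins, HSPB1 (HSP27), which holds unfolding proteins without ATP, stood at 52.8, 54.5 and 178 CPM in parental 1 to 3. The edited libraries of HSPB1 were at 81.8 and 84.6 CPM (line 1) and at 82.4 and 130.2 CPM (line 2), again above parental 1 and 2 and below parental 3. HSPB11, named for this family but known as a part of intraflagellar transport, stood at 50.1, 51.3 and 36.3 CPM in the parental libraries and was lowest in parental 3. The mitochondrial chaperonin pair parted in the same way. HSPE1 stood at 11.4, 13.9 and 81.8 CPM in parental 1 to 3, at 17.1 and 19.9 CPM in line 1 and at 15.8 and 27.9 CPM in line 2. HSPD1 stood at 1211, 1122 and 1140.4 CPM in the parental libraries, at 985 and 1206 CPM in line 1 and at 1154 and 1607 CPM in line 2. The lid gene was thus 5.88-fold higher in parental 3 than in parental 2, while the cage gene was not above parental 1. HSPE1 overlaps the readthrough gene HSPE1-MOB4 on its own strand, and DNAJB4 overlaps GIPC2 in the same way. DNAJB1 overlaps TECR on the opposite strand, and since the counting settings are not given in the sources used here, reads of such pairs may be assigned to either gene or to none.

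Of the 7 tested J-domain genes, DNAJB1 and DNAJB4 reached the 2-fold level in parental 3. DNAJB1 stood at 54.7, 52.4 and 1456 CPM in parental 1 to 3, at 157 and 81.9 CPM in line 1 and at 42.1 and 68.2 CPM in line 2. The gap of parental 3 was 26.6-fold, both line 1 libraries were above parental 1 and 2, and the line 2 libraries lay on either side of them. DNAJB4, a close relative of DNAJB1, stood at 23.8, 21.4 and 101 CPM in the parental libraries, at 38.9 and 27.1 CPM in line 1 and at 24.7 and 30.9 CPM in line 2. DNAJB6, which holds back aggregation, stood at 119, 142 and 246 CPM in the parental libraries and missed the 2-fold level over parental 2. DNAJC7, which binds both HSP70 and HSP90, ranged from 126 to 154 CPM over the 7 libraries, with parental 3 below both other parental libraries.

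**Figure D2:**
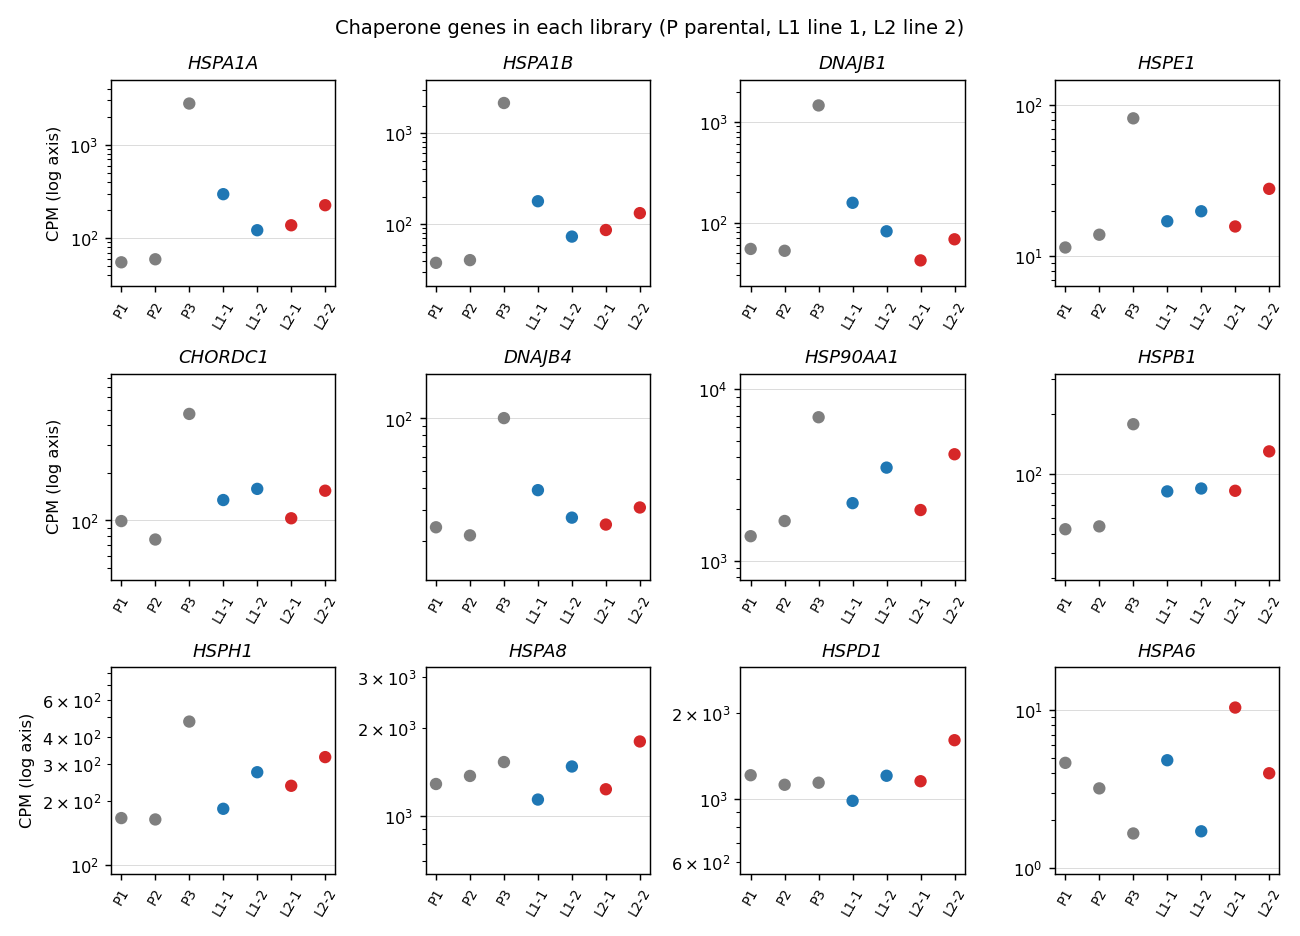
CPM of 12 chaperone genes in each library, 1 point per library, on log axes (P parental, grey; L1 line 1, blue; L2 line 2, red). For 9 of the genes, from HSPA1A to HSPH1, parental 3 is the highest library, whereas HSPA8 and HSPD1 are highest in line 2 replicate 2 and HSPA6 is lowest in parental 3.

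Among exchange factors, BAG3, which links HSP70 to selective autophagy, stood at 57.2, 47.3 and 135 CPM in parental 1 to 3, at 63.5 and 66.0 CPM in line 1 and at 62.3 and 83.3 CPM in line 2. It was the last of the 11 members past the 2-fold level, 2.36-fold above parental 1. BAG1 stood at 50.4, 60.3 and 68.4 CPM in the parental libraries and at 48.3 to 69.1 CPM in the edited ones, with overlap. Of 8 co-chaperones of HSP90 and HSP70, CHORDC1 alone passed. CHORDC1 stood at 99.1, 75.8 and 472 CPM in parental 1 to 3, at 135 and 158 CPM in line 1 and at 103 and 154 CPM in line 2, with every edited library between. FKBP4, an HSP90-bound prolyl isomerase of steroid receptor complexes, was the member just under the level, with parental 3 at 276 CPM and 1.76-fold above parental 1. All 8 co-chaperones were highest in parental 3 among the parental libraries, against 40.5% of all genes. For CDC37 and STUB1 the lead was only 1.02-fold and 1.06-fold.

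The RNA of the heat shock factors themselves did not reach the 2-fold level in parental 3. HSF1 stood at 105, 88.4 and 119 CPM in parental 1 to 3, at 91.2 and 88.4 CPM in line 1 and at 106 and 122 CPM in line 2. HSF2, a second factor that can pair with HSF1, stood at 30.4, 32.8 and 52.2 CPM in the parental libraries and at 28.6 to 33.9 CPM in the edited ones. Parental 3 was thus 1.59-fold above parental 2 for HSF2 and 1.13-fold above parental 1 for HSF1. The log2 gap of HSF2, 0.67, was above the median gap of 0.45 over the 37 tested members, and that of HSF1, 0.18, was below it. HSF1 is regulated largely at the protein level, which RNA counts do not show.

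The promoter matches above were then set against the levels in parental 3. Of the 11 members past the 2-fold level, 5 had a 2-unit match, HSPA1A, HSPA1B, CHORDC1, HSPB1 and HSPA1L, and 1 had a 3-unit match, CHORDC1. The windows of HSPA1L and HSPA1A overlap, and these genes share their single match. Of the other 20 tested members with a promoter in the table, 6 had a 2-unit match and 4 a 3-unit match. Of these 4, DNAJB6, DNAJA1 and HSPA8 had parental 3 at 1.73, 1.36 and 1.12 times the higher of the other parental libraries. For HSPA6 parental 3 was the lowest of the 7 libraries. HSP90AA1, HSPH1, HSPE1, DNAJB1, DNAJB4 and BAG3 had none, which says only that these letters are not in the window around 1 annotated start. Any other start of these genes was not searched.

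**Figure D3:**
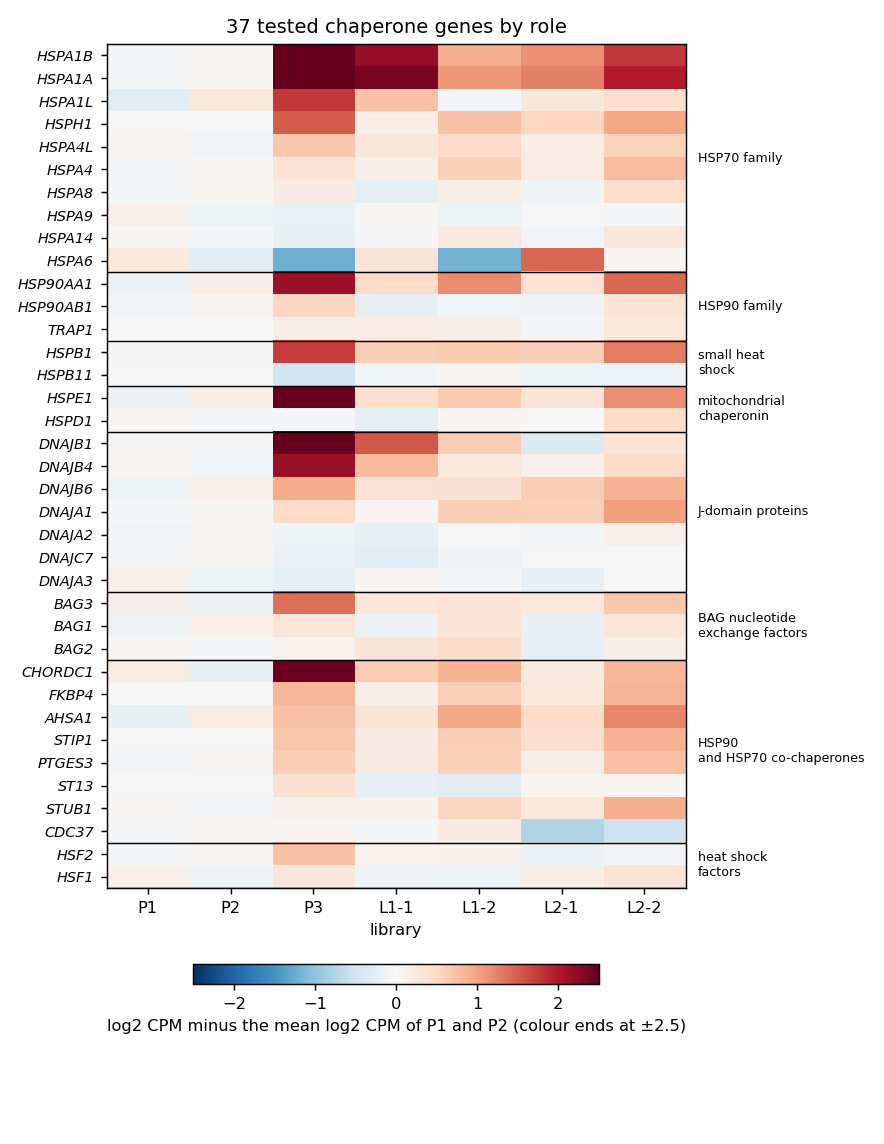
Log2 CPM of the 37 tested chaperone genes in each library minus the mean of parental 1 and 2, grouped by role, with colours ending at 2.5 either way. Parental 3 is the darkest column, line 2 replicate 2 is the next in many genes, and HSPA6 and CDC37 hold the deepest blue cells.

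Taken over the 7 libraries, parental 3 was the highest for 16 of 37 members, against 22% of all genes tested, and the lowest for 5 members, against 22.8%. The next was line 2 replicate 2, the highest for 13 members, against 19.2%. Parental 3 was at least 2-fold above all 6 other libraries for 7 members (0.848% of all genes). The 4 edited libraries were all above parental 1 and 2 for 18 of 37 members, against 13.2% of all genes, and all below parental 1 and 2 for 0 members, against 14.2%. They were all below parental 3 for 16 members, against 27.4%. The edited libraries also differed among themselves. Line 2 replicate 2 was the highest of the 4 for 22 of 37 members, against 26.6% of all genes. The median absolute log2 difference over the members was 0.44 between the line 2 libraries, 0.27 between those of line 1 and 0.11 between parental 1 and 2, against 0.60 and 0.54 between parental 3 and parental 1 or 2. Over all genes tested these values were 0.29, 0.26 and 0.18, against 0.40 and 0.42, with the widest pairs again those of parental 3.

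The first comparison set the 4 edited against the 3 parental libraries, and no member passed. The count was 0 of 37 at an adjusted p under 0.05 (quasi-likelihood test of edgeR, Benjamini-Hochberg over all genes tested), where 0.182% of all genes passed. DNAJB1 and STUB1, 2 of 37, had an unadjusted p under 0.05, against 11.9% of all genes, and DESeq2's Wald test called 0 of the 32 members to which it gave an adjusted p, against 1.96% of all genes. The median log2 fold change of the members was 0.01, against 0.00 over all genes. HSPA1A averaged 964 ± 1570.0 CPM (SD, n = 3) over the parental libraries and 195 ± 81.3 CPM (SD, n = 4) over the edited ones, a log2 fold change of -2.31 (SE 1.18) and an edgeR adjusted p of 0.477. DNAJB1 averaged 521 ± 809.8 CPM (SD, n = 3) over the parental libraries and 87.3 ± 49.4 CPM (SD, n = 4) over the edited ones, a log2 fold change of -2.58 (SE 1.07) and an edgeR adjusted p of 0.401. In both genes the parental SD exceeds the parental mean, because 1 of the 3 libraries is high. The log2 fold change was -2.65 for HSPA1B, -0.83 for HSPE1, -0.65 for CHORDC1, -0.17 for HSP90AA1 and 0.02 for HSPA8.

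Without parental 3 the signs of 6 of these members turned. The fit of 4 edited against 2 parental libraries gave log2 fold changes of 1.79 for HSPA1A, 1.61 for HSPA1B, 0.95 for HSP90AA1, 0.72 for DNAJB1, 0.69 for HSPE1 and 0.67 for CHORDC1, and 0.11 for HSPA8. HSPA6 did not turn, with log2 fold changes of 0.74 with all libraries and 0.44 without parental 3. Again 0 of 37 members passed in edgeR, against 0.159% of all genes, while 15 of 37 members had an unadjusted p under 0.05, against 12.7% of all genes. The fold change was positive for 30 of 37 members, against 52.7% of all genes, and the median was 0.41, against 0.02. In the authors' deposited table of edited against parental cells, which includes parental 3, 0 of 40 members had an adjusted p under 0.05 and the smallest was 0.404. That table gives no adjusted p for 8 members, among them HSPA1A, HSPA1B, DNAJB1, HSPE1 and CHORDC1.

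Each line was then set against the parental libraries, which both contrasts share. In line 1, 0 of 37 members passed in edgeR, against 1.75% of all genes. An unadjusted p under 0.05 was found for 2 of 37, BAG2 and ST13, against 13.4% of all genes, and DESeq2's Wald test called 0 of 34, against 4.18% of all genes. Log2 fold changes were -2.21 (SE 1.5) for HSPA1A, -2.55 (SE 1.56) for HSPA1B and -2.13 (SE 1.30) for DNAJB1. Without parental 3, 2 members passed in line 1, against 4.93% of all genes. Without parental 1 or parental 2 instead, 0 members passed, against 0.754% and 0.596% of all genes. Parental 3 was far above the other parental libraries for both members that passed, so leaving it out sets their sign and spread. In the fit without parental 3, HSPA1A had a log2 fold change of 1.89 (SE 0.38; edgeR adjusted p of 0.0271). HSPA1B, which shares sequence with HSPA1A, had 1.71 (SE 0.37), with an adjusted p of 0.0348. DNAJB1 had a log2 fold change of 1.18 there, with an adjusted p of 0.0653 in edgeR. Of the 37 members, 28 had a positive fold change in line 1 without parental 3, against 51.8% of all genes.

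In line 2, 1 of 37 members passed with all libraries, against 5.82% of all genes, and that member, CDC37, was lower. HSPA1A and HSPA1B had log2 fold changes of -2.41 (SE 1.51) and -2.76 (SE 1.57). Without parental 3, 6 members passed, against 9.79% of all genes, 5 of them higher. Without parental 1 or parental 2 instead, 0 members passed, against 3.13% and 3.86% of all genes. In the fit without parental 3, log2 fold changes were 1.68 (SE 0.38) for HSPA1A and 1.5 (SE 0.36) for HSPA1B. Their adjusted p values were 0.0262 and 0.0359 in edgeR with Benjamini-Hochberg adjustment. In the same fit HSPB1 had 1.00 (SE 0.20), DNAJB6 0.76 (SE 0.14) and DNAJA1, a partner of HSPA8 in protein folding and import, 0.84 (SE 0.21). The edgeR adjusted p values of these 3 were 0.0160, 0.0128 and 0.0389. With all libraries the log2 fold changes were 0.16 for HSPB1, 0.38 for DNAJB6 and 0.65 for DNAJA1. DNAJA1 stood at 164, 169 and 230.2 CPM in parental 1 to 3, at 173 and 255 CPM in line 1 and at 249.7 and 339.7 CPM in line 2. Both line 2 libraries of DNAJA1 were therefore above every parental library. STUB1 (CHIP), the ubiquitin ligase that sends chaperone clients to the proteasome, stood at 67.6 to 74.5 CPM in the parental libraries and at 82.6 and 129 CPM in line 2. Its log2 fold change in line 2 was 0.58 (SE 0.20), and the edgeR adjusted p was 0.138. The difference between using and leaving out parental 3 was not itself tested.

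**Figure D4:**
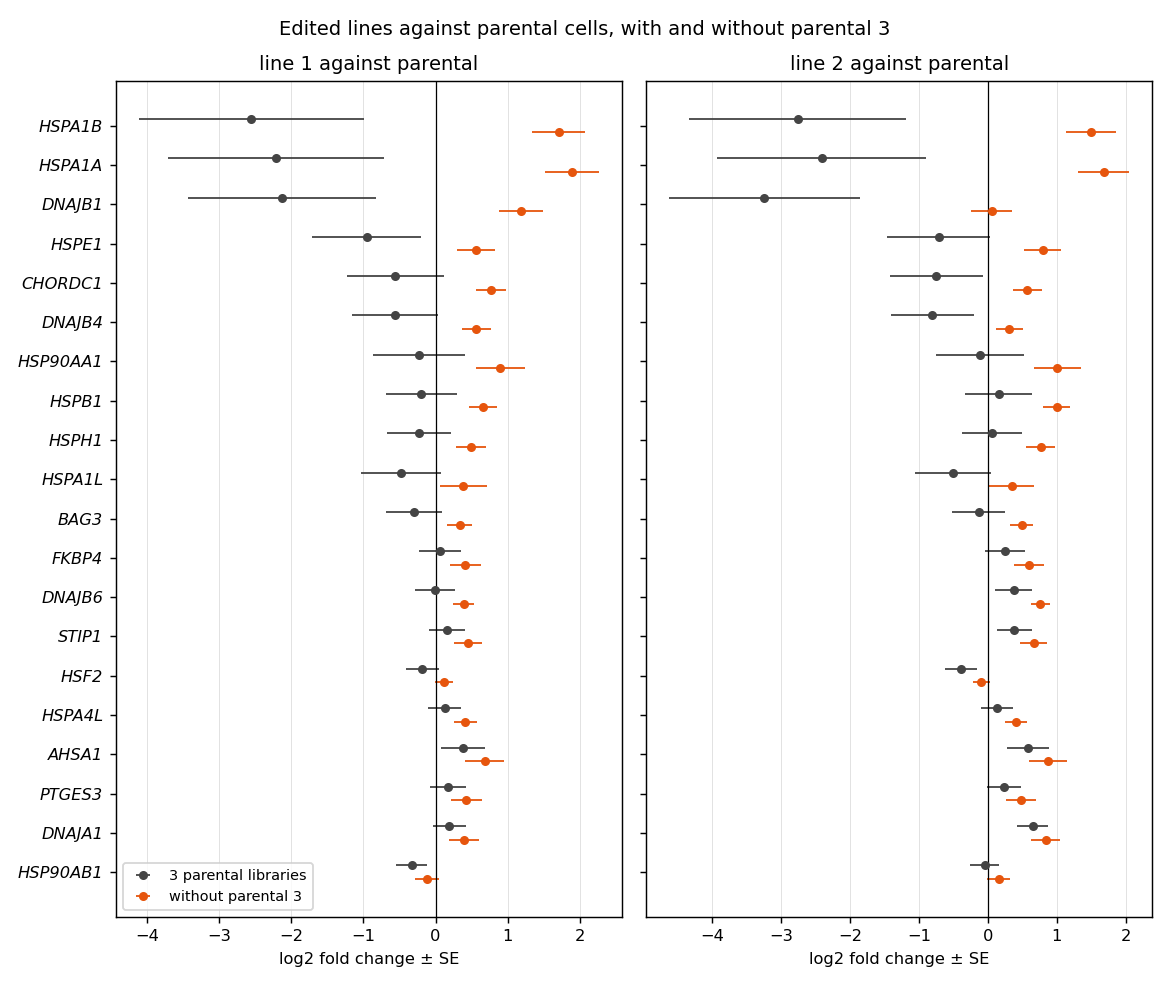
Fitted log2 fold change with its standard error for 20 chaperone genes in line 1 (left) and line 2 (right) against parental cells, with all 3 parental libraries (grey) and without parental 3 (orange). For HSPA1A and HSPA1B the grey points lie at -2.21 to -2.76 and the orange points at 1.5 to 1.89.

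CDC37, the co-chaperone that brings kinases to HSP90, was the member that differed in line 2. It stood at 293, 311 and 316 CPM in parental 1 to 3, at 294 and 349.8 CPM in line 1 and at 179.9 and 212 CPM in line 2. The parental and line 1 libraries overlapped, and both line 2 libraries were below all 5 of them. CDC37 fell in line 2 by a log2 fold change of -0.65 (SE 0.15) against parental cells, with an adjusted p of 0.0353 in edgeR with Benjamini-Hochberg adjustment, and by -0.72 (SE 0.16) against line 1, with an adjusted p of 0.0312. DESeq2's Wald test also called CDC37 and no other member in both comparisons, where it called 10.2% and 8.74% of all genes, and the fit without parental 3 kept both calls, with log2 fold changes of -0.61 and -0.72. Leaving out parental 1, parental 2 or any of the 4 edited libraries ended both calls in edgeR, with log2 fold changes of -0.53 to -0.78 against parental cells and -0.58 to -0.84 against line 1. Without a line 1 or line 2 library that line has 1 library, which is assumed to vary like the other groups. Why the calls ended was not tested.

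The comparison of line 2 with line 1 holds 2 lines of the same genotype, and CDC37 was 1 of 37 members called in it, against 6.54% of all genes. Without parental 3, which enters this contrast only through the shared estimate of the spread and the scaling, 2 members passed, against 12.4% of all genes. The other was DNAJB1, lower in line 2 by a log2 fold change of -1.12 (SE 0.30), and its edgeR adjusted p was 0.0445. With all libraries the same fold change of -1.12 had an SE of 1.33 and an adjusted p of 0.750. HSPA6 and BAG2, a BAG protein that inhibits STUB1, had log2 fold changes of 1.15 and -0.41 between the lines, with adjusted p values of 0.413 and 0.217 in edgeR.

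CDC37 and DNAJB1 are the only tested members on chromosome 19, and the medians of the genes around them were below 0 in line 2. Over the 20 nearest tested genes of each, 10 on either side in GENCODE order, the median log2 fold change in line 2 against parental cells was -0.63 around CDC37 and -0.72 around DNAJB1. Of these neighbours 5 and 6, respectively, were lower at an adjusted p under 0.05 in edgeR. Against line 1 the medians were -0.55 and -0.79, with 5 and 9 neighbours lower. The lowest median around any of the other 35 members was -0.33 against parental cells, around HSP90AA1, and -0.34 against line 1, around HSPA8. The highest median in line 2 against parental cells was 0.35, around STUB1, with 2 neighbours higher at an adjusted p under 0.05 in edgeR. In line 1 against parental cells the medians around CDC37 and DNAJB1 were -0.06 and 0.06. Whether CDC37 and its neighbours changed together for 1 reason was not tested.

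Genes of related pathways were read by their counts in parental 3 and in the line comparisons. The lists were chosen with earlier results of these data known, so these counts are descriptive and are no independent support. Most of the other listed genes known to respond to heat shock stood with the inducible chaperones. Parental 3 was at least 2-fold above both other parental libraries for 7 of 10 tested, against 3.08% of all genes. UBB, a stress-induced polyubiquitin gene, stood at 541 CPM in parental 3, against 254 and 256 CPM in parental 1 and 2. CRYAB, a small heat shock protein of lens and muscle, and IER5, an HSF1 target, were named after their values were seen. CRYAB stood at 0.0542, 0.233 and 11.1 CPM in parental 1 to 3, and IER5 at 59.0, 62.4 and 266 CPM. The other folding and degradation lists had few or no genes past this level, and at 3.08% of all genes lists this short would also hold few or none. The count was 0 of 8 for the TRiC chaperonin, which folds actin and tubulin, 0 of 6 for its partner prefoldin, 0 of 9 for other HSP90 co-chaperones, 0 of 12 for mitochondrial quality control, 0 of 31 for the proteasome and 1 of 12 for other J-domain and exchange factors.

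Gene groups outside the heat shock response were also high in parental 3, where 3.08% of all genes were at least 2-fold above both other parental libraries. The gap was reached by 6 of 16 chaperones of the endoplasmic reticulum, where CALR stood at 1365, 1307 and 5520 CPM and HSP90B1 at 1020.1, 893 and 3574 CPM in parental 1 to 3. It was also reached by 11 of 17 genes of sterol synthesis, where HMGCS1, the enzyme that makes HMG-CoA, stood at 321, 328 and 2877 CPM. These lists too were chosen with earlier results of these data known. The part of these genes in the level of the chaperone genes was not tested. Line 1 replicate 1, the edited library with the highest HSPA1A and DNAJB1, had CALR at 2622 CPM and HMGCS1 at 1423 CPM, whereas line 2 replicate 2, the highest edited library for most members, had them at 998 and 434 CPM.

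In the line comparisons the related lists held few calls in edgeR with Benjamini-Hochberg adjustment, where 1.75% of all genes passed in line 1, 5.82% in line 2 and 6.54% in line 2 against line 1. PPP5C, an HSP90-bound phosphatase and 1 of 9 in its list, rose in line 1 by a log2 fold change of 0.82, with an adjusted p of 0.0420. DNAJB5, a relative of DNAJB1 and 1 of 12 in its list, rose in line 2 by 1.59, with an adjusted p of 0.00725. The mitochondrial quality control genes TIMM44, the import motor subunit, and LONP1, a matrix protease, fell in line 2 by -0.96 and -1.04, with adjusted p values of 0.00371 and 0.0286, as did the protease subunit CLPP by -0.83, which makes 3 of 12 in that list. TIMM44 and CLPP were also lower in line 2 than in line 1, by -1.06 and -0.94. These 3 genes lie on chromosome 19, and the medians of their neighbours were -0.93, -0.65 and -0.60 in line 2 against parental cells. VBP1, 1 of 6 prefoldin genes, and HERPUD1, 1 of 16 genes of the endoplasmic reticulum list, were lower in line 2 than in line 1, by -0.68 and -1.56. Without parental 3, 2 of 10 other heat shock genes and 5 of 17 sterol genes were called higher in line 1, and 0 of either list lower. There 4.93% of all genes passed in either direction, with 335 of 18866 higher. In line 2, 2 of 10 other heat shock genes were higher and 1 lower. Mitochondrial quality control had 1 of 12 higher and 3 lower in line 2. There 9.79% of all genes passed in either direction, with 580 of 18866 higher.

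**Figure D5:**
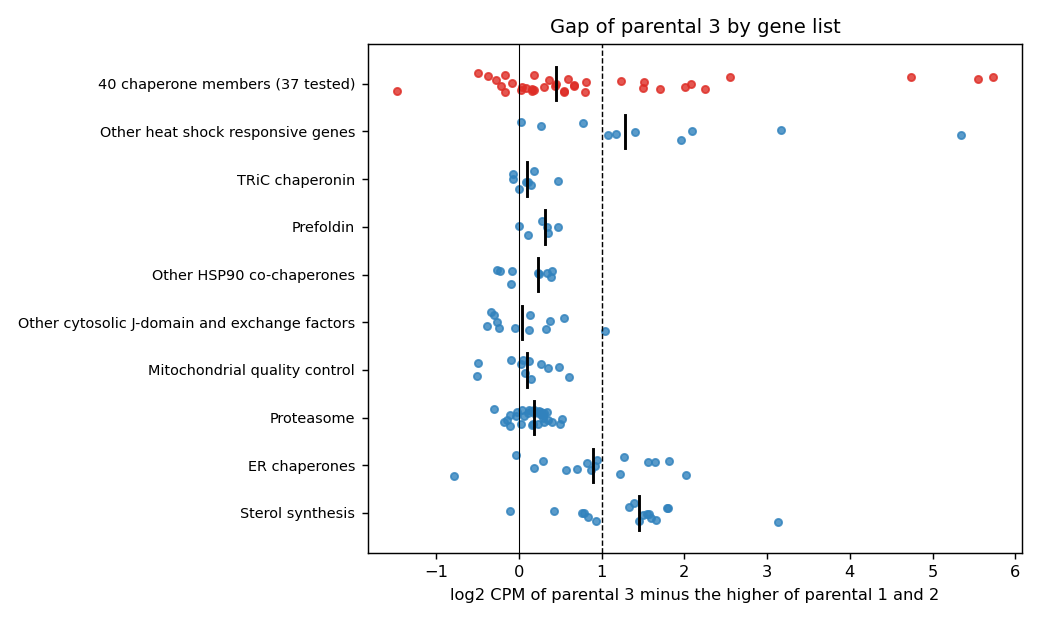
Log2 CPM of parental 3 minus the higher of parental 1 and 2 for each tested gene of the chaperone group (red) and of 9 related lists (blue), with list medians as black bars and the 2-fold level as a dashed line. Chaperones spread from -1.47 to 5.73 around a median of 0.45, the other heat shock genes have a median of 1.29 and sterol synthesis 1.45, and TRiC has 0.10.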

How the data were processed

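Stranded TruSeq libraries of poly-A RNA were sequenced with 150 cycles from each end, per the labels' protocols. The submitters' processing notes name STAR 2.7.3a, HTSeq 0.11.2, Cufflinks 2.2.1 and DESeq2 among the tools and hg19 (GRCh37) as the build, and settings are not given in the sources used here. The tests start from the read counts as the authors deposited them, and levels per length from their deposited FPKM values, in which 222 lines with repeated identifiers were summed per gene. The authors' deposited comparison table holds a log2 fold change and p-values. A further 21 columns of values per sample were not used.

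Genes were filtered with filterByExpr in edgeR 4.0.16 (R 4.3.3), scaled by TMM and tested with glmQLFit and glmQLFTest, with Benjamini-Hochberg adjustment at 0.05 over 18160 genes. Edited against parental cells used 2 groups, and the lines used 3 groups in 1 fit. The parental libraries were set side by side on log2 CPM (prior count 2). Total counts of 35841302 to 72577827 give precision for counting error only. The edgeR test of each comparison was tried on simulated counts with planted changes. No simulated library stood apart as parental 3 does, so the trial does not cover that feature. Of 145 symbols in the related lists, 144 were matched. The members and lists were chosen with earlier results of these data known. Values per library are given for members that passed and for the 10 with the largest gap of parental 3. They are also given for the most abundant of each role by FPKM and, after their values were seen, for some others. Of each list up to 2 genes that passed, or else the most abundant, were named, and further ones after their values were seen; some genes are not reported here. GENCODE release 29 (GRCh38) served only for gene order, overlaps and shared sequence. Alternatives were the size factors of DESeq2 1.42.0, its Wald test, no filter, a replicate block, a 3-group fit, another prior count or fold, and each library left out. Replicate numbers carry no stated pairing and only 2 numbers are shared between groups.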

Additional observations from a re-analysis of the deposited data

Results flagged for a closer look

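HSPB1, the small heat shock protein HSP27, had a CPM of 130.2 in line 2 replicate 2, whereas the other 3 edited libraries lay between 81.8 and 84.6 CPM. A single library this far from the other edited libraries was found for 1 of the 37 tested members, and chance gives about 1 such group in 20. The same library was the highest of the edited libraries for 22 of 37 members.

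CDC37, the kinase co-chaperone of HSP90, differed between the edited lines, with a log2 fold change of -0.72 (SE 0.16) in line 2 against line 1 and an adjusted p of 0.0312 in edgeR with Benjamini-Hochberg adjustment. The 2 line 2 libraries were both below the 2 line 1 libraries.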

How the results depend on the processing

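Of the results above, those that turned sign without parental 3 also turned under the replicate block. Number 3 holds that library alone, so the block removes it from the contrasts. Log2 fold changes in edited against parental cells turned to 1.76 for HSPA1A, 1.57 for HSPA1B, 0.86 for HSP90AA1, 0.69 for DNAJB1, 0.65 for HSPE1 and 0.64 for CHORDC1. In line 1 they turned to 1.83 for HSPA1A, 1.65 for HSPA1B and 1.14 for DNAJB1, and in line 2 to 1.68 for HSPA1A and 1.5 for HSPA1B. The block called 8, 16 and 7 members in line 1, line 2 and line 2 against line 1, where 12.5%, 21.4% and 19.6% of all genes passed, and 0 in edited against parental cells. With no filter the counts were 5, all lower, 11, of which 7 were lower, and 2, where 3.22%, 6.84% and 5.96% passed. A fold of 4 left 7 members above in parental 3, against 0.38% of all genes. Leaving out each parental library in turn gave 0 to 2, 0 to 6 and 0 to 2 members called in these contrasts. The shares of all genes there were 0.596% to 4.93%, 3.13% to 9.79% and 4.62% to 12.4%. Fold changes were also read with each library, parental or edited, left out in turn. The fold changes in edited against parental cells then ran from -2.87 to 1.79 for HSPA1A, -3.22 to 1.61 for HSPA1B, -3.12 to 0.72 for DNAJB1, -1.25 to 0.69 for HSPE1, -1.05 to 0.67 for CHORDC1, -0.54 to 0.95 for HSP90AA1 and -0.13 to 0.11 for HSPA8. In line 1 they ran from -3.0 to 1.89 for HSPA1A, -3.35 to 1.71 for HSPA1B and -2.68 to 1.18 for DNAJB1. In line 2 they ran from -2.97 to 1.68 for HSPA1A, -3.32 to 1.5 for HSPA1B and -0.22 to 1.00 for HSPB1. The cause of the other changes was not tested. DESeq2's size factors, its Wald test and the 3-group fit moved no count by over 1.5 times. HSPA6 and HSPA1L, at a few CPM, rest on the fewest counts among the tested members.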
